A study of Mus musculus with 15 samples.

Results

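The MHC class I antigen presentation genes are 10 genes out of the 38355 in the authors' deposited table. They were chosen by symbol, with their log2 fold changes in that table already known, to set class I genes near Ring1 on chromosome 17 beside B2m and Nlrc5 on other chromosomes. The study profiled RNA from mouse embryonic stem cells in 15 samples, in 5 groups of 3, which the design text calls biological replicates. All 5 groups grew on gelatin in 2i medium with LIF, the 2i being inhibitors of the kinases MEK and GSK3. Ezh2-KO cells have the genotype Ezh2 -/- and were compared with Ezh2-WT cells, whose labels read wild type and which the design text describes as Ezh2 fl/fl. Suz12-KO cells (Suz12 -/-) and Ring1A+B-DKO cells (Ring1a -/- with Ring1b -/-) were each compared with E14-WT, the wild-type line E14TG2a. Ezh2-WT was compared with E14-WT as well. The labels name no parental line for Suz12-KO, and no group is the wild type that the Ring1A+B-DKO cells came from, so in those comparisons the knockout and the line cannot be told apart. The labels do not say whether a line is 1 clone.

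Class I molecules show peptides from inside the cell to CD8 T cells. The proteasome cuts proteins into peptides, the Tap1-Tap2 transporter carries these into the endoplasmic reticulum, and they are loaded onto a heavy chain paired with beta-2 microglobulin. Nlrc5 is a transactivator of class I genes, and interferon raises the whole pathway. Embryonic stem cells are known for low surface class I. Ezh2 and Suz12 are subunits of PRC2, which methylates histone H3, and Ring1A (gene Ring1) and Ring1B (gene Rnf2) are the ubiquitin ligases of PRC1.

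The promoters of the H2 members and of B2m and Tap1 are shown first, because H2-K1, H2-D1 and H2-Q7 share letters there that the other 5 members with a window lack. Of those 5, H2-T23 stood below 0 in Ring1A+B-DKO cells and B2m, Tap1, Psmb8 and Psmb9 above 0, and whether the letters bear on the values was not tested. RefSeq (GRCm38.p6) gave promoter windows for 8 of the 10 members, each reaching from 250 bases before a start to 50 after it. Where a gene had several windows, that nearest the GENCODE start was used. The RefSeq start still lay 364 bases from the GENCODE start for H2-D1, 154 for H2-T23, 474 for Psmb8 and 434 for Psmb9. The windows lie at chr17:34000298-34000597 (minus strand), chr17:35262844-35263143 (plus), chr17:35438905-35439204 (plus), chr17:36032652-36032951 (minus), chr2:122147437-122147736 (plus) and chr17:34187306-34187605 (plus). Capitals mark exact matches, on either strand, to GGGATTCCC, an NF-kB site of the class I enhancer, or to GAAANNGAA, a core of the interferon-stimulated response element. Tap1 has neither and is shown as the start region that it shares with Psmb9.
H2-K1: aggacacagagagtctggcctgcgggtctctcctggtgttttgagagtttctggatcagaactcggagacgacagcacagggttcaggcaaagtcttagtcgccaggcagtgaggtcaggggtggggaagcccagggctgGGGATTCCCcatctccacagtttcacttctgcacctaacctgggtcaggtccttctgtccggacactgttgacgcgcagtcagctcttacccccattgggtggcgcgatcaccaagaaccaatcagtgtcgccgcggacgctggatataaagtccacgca
H2-D1: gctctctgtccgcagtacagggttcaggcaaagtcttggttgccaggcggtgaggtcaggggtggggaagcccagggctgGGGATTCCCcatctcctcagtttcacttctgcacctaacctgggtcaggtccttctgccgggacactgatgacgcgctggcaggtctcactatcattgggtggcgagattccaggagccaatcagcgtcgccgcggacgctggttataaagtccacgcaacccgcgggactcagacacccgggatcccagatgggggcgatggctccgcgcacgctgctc
H2-Q7: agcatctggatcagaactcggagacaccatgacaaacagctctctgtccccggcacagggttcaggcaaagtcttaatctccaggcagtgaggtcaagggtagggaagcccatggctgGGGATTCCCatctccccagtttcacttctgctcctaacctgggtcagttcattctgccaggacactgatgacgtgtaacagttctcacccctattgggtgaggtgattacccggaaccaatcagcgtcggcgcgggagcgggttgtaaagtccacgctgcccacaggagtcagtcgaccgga
H2-T23: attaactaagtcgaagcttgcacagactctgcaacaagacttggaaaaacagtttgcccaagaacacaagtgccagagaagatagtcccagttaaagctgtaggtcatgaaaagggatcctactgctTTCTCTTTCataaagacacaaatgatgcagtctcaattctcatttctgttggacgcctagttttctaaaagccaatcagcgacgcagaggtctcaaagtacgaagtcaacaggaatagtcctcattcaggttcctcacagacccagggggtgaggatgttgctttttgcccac
B2m: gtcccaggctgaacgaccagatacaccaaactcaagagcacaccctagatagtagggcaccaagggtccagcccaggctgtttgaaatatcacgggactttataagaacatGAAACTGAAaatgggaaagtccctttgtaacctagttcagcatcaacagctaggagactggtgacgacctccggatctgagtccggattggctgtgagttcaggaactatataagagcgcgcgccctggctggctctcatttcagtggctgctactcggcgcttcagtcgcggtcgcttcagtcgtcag
Tap1: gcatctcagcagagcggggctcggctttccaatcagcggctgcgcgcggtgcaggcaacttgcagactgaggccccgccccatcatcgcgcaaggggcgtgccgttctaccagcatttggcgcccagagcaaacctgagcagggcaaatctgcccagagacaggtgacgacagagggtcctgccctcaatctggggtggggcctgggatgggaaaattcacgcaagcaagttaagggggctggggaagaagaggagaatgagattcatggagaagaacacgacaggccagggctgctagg

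GGGATTCCC was found in H2-K1, H2-D1 and H2-Q7, 3 of the 8 member windows, and in 0.359% of the windows of 27025 genes. It began 110, 170 and 132 bases before the RefSeq starts of H2-K1, H2-D1 and H2-Q7. In H2-D1 it lies inside the GENCODE model. These 3 genes also held ATTGG, the letters of a Y box bound by NF-Y, on the plus strand 94, 94 and 92 bases further on. These genes are alike in sequence, the transcripts of H2-D1 sharing a stretch of 251 nt at 95.2% identity with H2-K1 and one of 322 nt at 95% or more with H2-Q7. GAAANNGAA was found in H2-T23 and B2m, and in 8.56% of all windows. ATTGG was found in 7 of the 8 members, Psmb8 being the exception, against 37.9% of all windows. TGACGCA and TGACGTCA, forms of the X2 box, were in 0 member windows and in 2.19% and 1.86% of all. GGGCGG, a GC box, was in Tap1 and Psmb9, and in 36.0% of all windows. Tap1 and Psmb9 start 226 bases apart on opposite strands in RefSeq, and their windows share 275 bases, so their matches are the same ones. The members held between 5 CG dinucleotides (H2-T23) and 19 (H2-D1) in 300 bases, where the median over all genes was 7, with quartiles of 3 and 21. A match is only a run of letters, and its absence says nothing of the factor named.

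**Figure D1:**
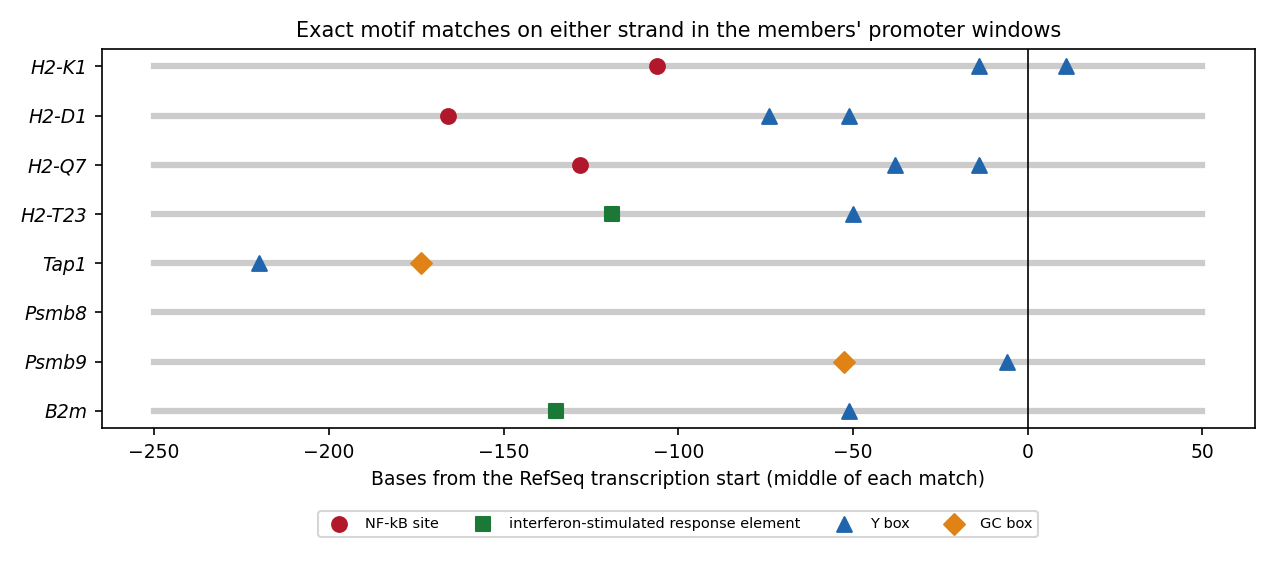
Positions of exact motif matches in the promoter windows of 8 members. The x axis is the distance in bases from the RefSeq start, each grey line is a window and each symbol is the middle of a match on either strand. H2-K1, H2-D1 and H2-Q7 each hold an NF-kB match followed by a pair of Y box matches, while H2-T23 and B2m hold an interferon-stimulated response element match.

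All fold changes and calls that follow are those of the authors' deposited table, given as the group named first over the other. For each comparison the table gives every gene a log2 fold change and says whether it was called, and it holds no p-value, error or value per sample. The signs of the 3 columns against E14-WT were turned, because genes read as absent in E14-WT show that these columns hold E14-WT over the named group, the reverse of their headers. The spread between replicates, the depth of each library and the level of a gene within a group are therefore unknown here. "Rose" and "fell" are used only of genes the authors called. A gene is read as having no reads in both groups of a comparison where its value is missing. Values of weakly read genes lie close to 0: the 2259 genes read as present in Ring1A+B-DKO and absent in E14-WT had a median log2 fold change of 0.20. The same value is also often shared by many genes, in 30.6% to 31.4% of cases per comparison. Of the genes that were deleted, Ring1 fell in Ring1A+B-DKO, at -2.03, and Rnf2 stood at 0.17 there. Suz12 stood at -1.04 in Suz12-KO and Ezh2 at -0.14 in Ezh2-KO, both without a call. Which exons were deleted is not given in the sources used here.

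Most class I presentation genes stood higher in Ring1A+B-DKO cells than in E14-WT. Among the 10 members, the authors' deposited table calls H2-Q7, Psmb9 and Tap1 higher in Ring1A+B-DKO, which makes 3 that rose, and 0 fell. Over all 19693 genes with a value 3.00% were called and 2.38% were called higher. The members' median log2 fold change was 1.00, that of all genes 0.068, and 9 of the 10 members stood at 0.64 or more. In bulk RNA, more cells of a type and more RNA per cell cannot be told apart. These values took part in choosing the members, so nothing is read from the difference. Absolute values of at least 1 were seen in 8.10% of all genes in this comparison, and of at least 0.5 in 27.9%, so that most uncalled members lie within a size that many genes reach.

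Among the heavy chains, H2-Q7 (chromosome 17, 35439155 to 35443773), a class Ib gene of the Q region, had the largest value. Its value in the authors' deposited table was 2.63, a 6.19-fold increase, and 99.8% of genes with a value stood lower. H2-K1 (ENSMUSG00000061232, chromosome 17, 33996017 to 34000347), one of the classical heavy chains, stood at 1.19 in Ring1A+B-DKO and was not called, although the smallest size among called genes of this comparison is 1.00. H2-D1 (chromosome 17, 35262730 to 35267499), the other classical chain, stood at 0.64. H2-T23 (chromosome 17, 36029773 to 36032855), which encodes Qa-1, the ligand of the CD94-NKG2A receptor, stood at -0.14. The 4 heavy chains thus ranged from slightly below 0 to the largest value of any member. Their values are uncertain in how they are divided among genes. H2-K1 and H2-D1 each share near-identical stretches with 8 other genes and H2-Q7 with 11, among them H2-Q6 with a stretch of 983 nt and H2-Q5 with one of 1006 nt. H2-Q6 stood at 0.98 and H2-Q5 at 0.54, neither called. H2-T23 transcripts share such stretches with 66 other genes, the longest being 1068 nt with H2-T-ps. Most of the 66 have no H2 symbol, such as Hdac1 with 174 nt and Map4 with 158 nt. The count is therefore not one of heavy chain copies.

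The transporter and proteasome members lie together, between Ring1 and the class II gene H2-Ab1. In the authors' deposited table Tap1 (chromosome 17, 34187553 to 34197225), the first subunit of the peptide transporter, rose by 1.66 in Ring1A+B-DKO. Psmb9 (chromosome 17, 34181987 to 34187764), a catalytic subunit of the immunoproteasome, rose by 1.70. The GENCODE models of these genes overlap head to head, their starts lying 211 bases apart, and whether strand was used in counting is not stated, so reads in the overlap cannot be told apart. Tap2 (chromosome 17, 34203527 to 34216321), the partner of Tap1, stood at 0.86 without a call, as did Psmb8 (chromosome 17, 34197721 to 34201454), another immunoproteasome subunit, at 0.67. Psmb8 had no value in the other 3 comparisons, so that it is read as having reads in Ring1A+B-DKO cells and none in the other 4 groups. It is 1 of 12 genes with exactly that value, which comes from a fit against a group read as 0, so it is neither a fold change of known size nor a bound. All 4 genes stood on the same side, and those called are the pair with facing starts.

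Away from chromosome 17 the light chain and the transactivator stood on the same side as well. In the authors' deposited table B2m (ENSMUSG00000060802, chromosome 2, 122147686 to 122153083), the light chain paired with class I heavy chains, stood at 0.90 in Ring1A+B-DKO, where 91.7% of genes stood lower, and was not called. Nlrc5 (ENSMUSG00000074151, chromosome 8, 94434356 to 94527272) stood at 1.11, not called, and is read as having no reads in E14-WT, so that its value too is a fitted one and no bound. It is 1 of 6 genes with exactly that value. The median of these 2 members was 1.00 and that of the 8 on chromosome 17 was 1.02. Both B2m and Nlrc5 overlap an annotated gene on the opposite strand.

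**Figure D2:**
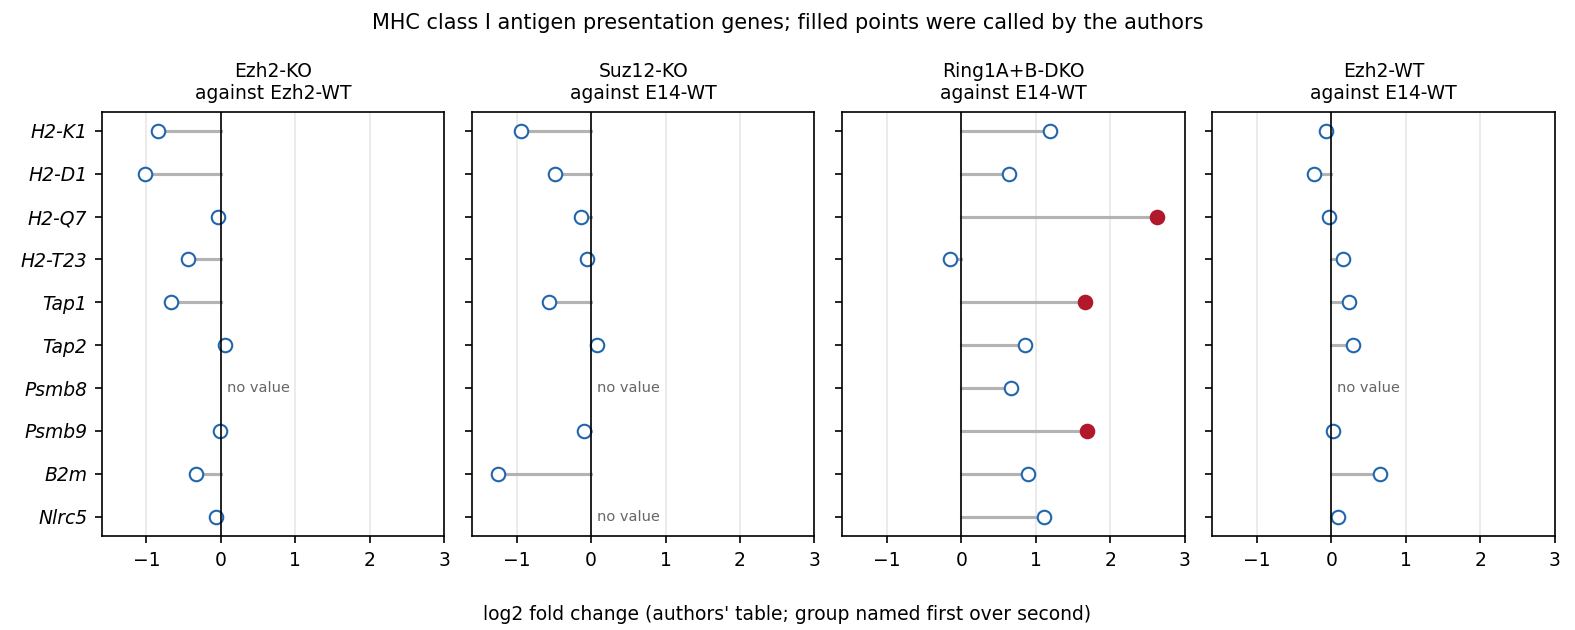
Log2 fold changes of the 10 members in 4 comparisons, from the authors' table. The x axis is the log2 fold change of the group named first over the other, filled red points were called by the authors and open points were not, and no error is known. In Ring1A+B-DKO all members but H2-T23 lie right of 0 and 3 are called, while in Ezh2-KO and Suz12-KO Tap2 alone lies right of 0.

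In both PRC2 knockouts the members stood lower or near 0, and the authors called 0 of them. Over all genes with a value 0.177% were called in Ezh2-KO against Ezh2-WT and 0.200% in Suz12-KO against E14-WT, so 0 calls among 9 and 8 members says little. The members' medians were -0.33 in Ezh2-KO and -0.31 in Suz12-KO, those of all genes being -0.011 and -0.026. Without members whose value other genes share both medians were -0.76, and without the 4 heavy chains that in Ezh2-KO was -0.071. H2-K1 stood at -0.84 in Ezh2-KO, where 0.873% of genes stood lower, and at -0.94 in Suz12-KO, where 0.757% did. H2-D1 stood at -1.02 in Ezh2-KO and at -0.49 in Suz12-KO. B2m had the larger size in the other knockout, at -0.33 in Ezh2-KO and -1.25 in Suz12-KO, where 0.211% of genes stood lower. Tap1 stood at -0.67 in Ezh2-KO and -0.57 in Suz12-KO. These 4 genes are the members whose values in both PRC2 knockouts are shared with no other gene.

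The values of the remaining members in the PRC2 knockouts are shared with other genes in the authors' deposited table. H2-T23 stood at -0.44 in Ezh2-KO, lower than B2m, a value that 10 genes have in all, and at -0.056 in Suz12-KO. In Ezh2-KO H2-Q7 stood at -0.045, Psmb9 at -0.011 and Tap2 at 0.052. In Suz12-KO H2-Q7 stood at -0.14, Psmb9 at -0.098 and Tap2 at 0.074. Nlrc5 stood at -0.071 in Ezh2-KO, a value that 544 genes have, and had none in Suz12-KO. The comparisons of Ezh2-KO and Suz12-KO have no library in common. Of the 8 members with both values all 8 had the same sign in both, 7 below 0 and Tap2 above it, where 58.9% of 16426 genes had the same sign. Ezh2-KO and Ring1A+B-DKO share no library either, and 7 of 9 members stood below 0 in Ezh2-KO and above 0 in Ring1A+B-DKO, as did 29.7% of 16786 genes. The members were chosen with these values known, so these counts carry no test. Some of the signs also belong to values near 0 that many genes share, and say little. In Ezh2-KO the value of Psmb9 equals the median of all genes, and 51 genes have it. In Suz12-KO 327 genes have the value of Psmb9 and 433 that of Tap2. Absolute values of at least 1 were seen in 0.674% of genes in Ezh2-KO and 0.822% in Suz12-KO, and of at least 0.5 in 8.35% and 9.14%.

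Between the wild-type lines, Ezh2-WT against E14-WT, 0 of 9 members were called in the authors' deposited table, against 0.607% of all genes. B2m stood at 0.65, where 95.1% of genes stood lower, and the other 8 members lay between -0.23 (H2-D1) and 0.30 (Tap2). Absolute values of at least 1 were seen in 2.32% of genes there and of at least 0.5 in 16.5%. H2-K1 stood at -0.075, H2-Q7 at -0.028, Psmb9 at 0.019 and Tap1 at 0.23. The members' median was 0.093. Suz12-KO, Ring1A+B-DKO and Ezh2-WT were all set against the same E14-WT libraries.

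The other genes between and around the members on chromosome 17 stood on balance slightly below 0 in Ring1A+B-DKO. Across the interval from 200 kb beyond H2-K1 to 200 kb beyond H2-T23, 117 protein-coding genes had a value in the authors' deposited table. Of these 6 rose, namely H2-Q7, Psmb9, Tap1, H2-Ab1, H2-Q2 and H2-Q10. Over all 19693 genes with a value 469 were called higher and 122 lower, which makes 3.00% called and 2.38% called higher. The 92 genes of the interval that are not Ring1, a member or a gene with an H2 symbol had a median of -0.13, and 0 rose while 3 fell, namely Platr17 at -1.64, Notch4 at -1.55 and Gm8909 at -2.29. Gm8909 shares stretches at 95% identity or more with all 4 heavy chain members, and Gm7030 with H2-K1 and H2-T23. Both count among the 92 because the split goes by symbol, so these genes are not all unlike the heavy chains. The 16 other genes with an H2 symbol had a median of 0.77, with 12 above 0 and 3 higher by the authors' call. Protein-coding genes on the rest of chromosome 17 had a median of 0.039 over 630 genes, of which 17 rose and 12 fell.

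Within 1 Mb of the start of Ring1, 76 of 93 protein-coding genes had a value in that table, with a median of -0.068, 3 higher calls (Psmb9, Tap1 and H2-Ab1) and 4 lower ones (Ring1, Myo1f, Platr17 and Notch4). Over all genes with a value 3.00% were called and 2.38% were called higher. Ring1 is a deleted gene, and Psmb9 and Tap1 are members chosen with these values known. The 4 largest absolute values in the window were those of Myo1f at -2.33, Ring1, H2-Ab1 at 1.73 and Psmb9. H2-K1 starts 24.3 kb from Ring1, Tap1 163 kb, H2-D1 1238 kb and H2-T23 2008 kb. H2-Q7, which has the largest value, starts 1414 kb away. In Ezh2-KO, Suz12-KO and Ezh2-WT the median over the 1 Mb window was -0.012, 0.011 and -0.0048.

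**Figure D3:**
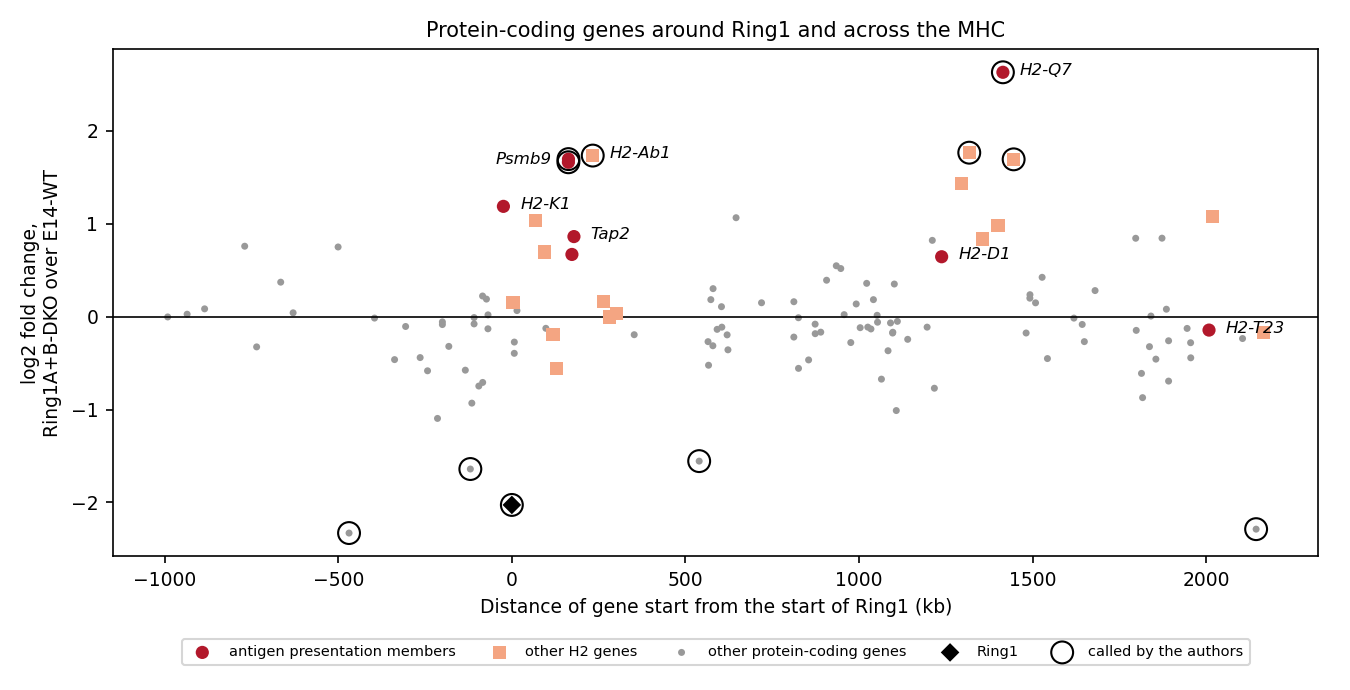
Log2 fold change in Ring1A+B-DKO over E14-WT (y axis) of protein-coding genes by the distance in kb of their start from that of Ring1 (x axis), for genes within 1 Mb of Ring1 and across the MHC interval. Red circles are members, squares other genes with an H2 symbol, grey dots other genes, the diamond Ring1, and rings mark the authors' calls. All 6 genes ringed above 0 are members or H2 genes.

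Most other heavy chains with a value also stood higher in Ring1A+B-DKO. Of 32 further class I and class I-like genes listed, 16 had a value in the authors' deposited table, and 12 stood above 0, with a median of 0.77. H2-Bl, H2-Q2 and H2-Q10 rose, with log2 fold changes of 1.97, 1.76 and 1.69, and H2-M5, a gene of the M region, fell, at -1.33. Over all genes with a value in Ring1A+B-DKO 3.00% were called, 2.38% were called higher and 55.4% stood above 0. H2-Q2 had no value in Suz12-KO, so it is read as absent in E14-WT and its value is a fitted one. The same holds for H2-K2, at 0.54 in Ring1A+B-DKO. H2-Q7 shares stretches at 95% identity or more with H2-Q10 (357 nt), H2-Bl (281 nt) and H2-K2 (281 nt), among others. The values of these genes may therefore not be separate from that of H2-Q7. In Ezh2-KO 14 of these genes had a value and their median was 0.046, in Suz12-KO it was -0.033 over 14 and in Ezh2-WT -0.037 over 16, with 0 calls in each. Over all genes 0.177%, 0.200% and 0.607% were called there. H2-Q2 stood at -0.50 in Ezh2-KO and 0.63 in Ezh2-WT.

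The rest of the loading and peptide-cutting machinery lay on either side of 0. Peptide loading and trimming genes had 0 calls among 9 in each comparison of the authors' deposited table. Per comparison 0.177% to 3.00% of all genes were called, so this says little. The 9 genes had a median of -0.010 in Ring1A+B-DKO. Erap1, the aminopeptidase that trims class I peptides, stood at 0.69 there, tapasin (Tapbp) at -0.010, the chaperone gene Calr at -0.39 and the aminopeptidase gene Lnpep at 0.27. Tapbp, which lies inside the interval, stood at 0.52 in Ezh2-WT, Calr at -0.45 and Lnpep at -0.50 in Ezh2-KO. Psmb10, the third inducible catalytic subunit, stood at -0.44 in Ring1A+B-DKO, in contrast to Psmb8 and Psmb9, and the difference was not tested. The proteasome activator genes Psme1, Psme2 and Psme3 stood at 0.029, 0.58 and -0.38. The constitutive subunits Psmb5, Psmb6 and Psmb7, whose places the inducible ones take, stood at -0.34, -0.18 and -0.15, with 0 calls in any comparison. Psmb5 and Psmb6 stood at 0.57 and 0.42 in Suz12-KO.

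In the authors' deposited table regulators of MHC genes gave 0 calls among 18 in Ring1A+B-DKO, against 3.00% of all genes. Their median was 0.023. The largest values were those of Irf8, an interferon regulatory factor, at 1.53 and Rfxap, a subunit of the RFX complex that binds MHC promoters, at 1.27. Both also stood higher in Ezh2-WT than in E14-WT, at 0.66 and 0.94. Nfyc, a subunit of NF-Y, stood at -0.60 in Ring1A+B-DKO. Of 7 interferon receptors and their kinases 1 rose, the interferon gamma receptor gene Ifngr1, by 1.83. Its partner Ifngr2 stood at 1.30 and the kinase gene Jak2 at 1.20, both named after their values were seen and not called. These are the largest values of the 7. The median of the 7 was 0.20 and their lowest value -0.21, with 6 above 0 and 1 below.

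Interferon-stimulated genes lay on both sides of 0 in Ring1A+B-DKO. Of 44 listed, 31 had a value in the authors' deposited table, 17 stood above 0 and 14 below, and their median was 0.13, or -0.071 over genes with all 4 values. Ifi27 rose, by 1.69, as the only call among the 31. Over all genes with a value 3.00% were called and 55.4% stood above 0, so these counts lie near the shares of all genes. Ifi27 is read as having no reads in E14-WT. A further 4 are read as having reads in Ring1A+B-DKO and none in E14-WT, namely Igtp at 0.84, Irf7 at 0.20, Mx2 at 0.15 and Ifih1 at 0.15, all fitted values without a call. Standard interferon targets such as Ifit1, Ifit3, Isg15, Usp18, Cxcl10 and Iigp1 had no value in any comparison and are read as having no reads in all 5 groups. These genes, the 4 before them, and Bst2 at 1.18 and Ifitm3 at -1.12, were named after their values were seen. In Ezh2-KO, Suz12-KO and Ezh2-WT the list's medians were 0.060, -0.037 and -0.13, with 0 calls each, against 0.177%, 0.200% and 0.607% of all genes.

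Markers of the cells themselves and of other cell types were read beside these values. In the authors' deposited table all 7 pluripotent stem cell markers, among them Pou5f1, Sox2 and Nanog, had values in all 4 comparisons, and their only call was Nanog, which fell in Ezh2-WT, at -1.15. In Ring1A+B-DKO 6 of the 7 stood below 0, with a median of -0.26, in Ezh2-KO 5 of the 7 did, with a median of -0.30, and in Suz12-KO 3 did, with a median of 0.056. MHC class II genes, which professional antigen-presenting cells express, had 1 increase among 9 with a value in Ring1A+B-DKO, H2-Ab1 at 1.73, and a median of 0.16, or 0.78 over genes with all 4 values. Leukocyte markers had 0 calls among 9 in Ring1A+B-DKO, where 3.00% of all genes were called. Their median was -0.11 and their highest value 0.15. The leukocyte genes with the largest values were Cd68 and Cd3e, at -1.07 and -0.83 in Ring1A+B-DKO and -1.24 and -1.15 in Suz12-KO, and Coro1a and Laptm5, at -0.80 and 0.65 in Ezh2-WT. Feeder fibroblast markers stood mostly on the members' side in Ring1A+B-DKO. There 8 of the 9 with a value of the 12 listed stood above 0, Thy1 and Col5a1 rose, by 1.66 and 1.33, and the median was 0.49, or 0.94 over genes with all 4 values. Lum, Postn and S100a4 are read as having no reads in any group, and Col1a2, Col3a1 and Dcn none in E14-WT. In Suz12-KO the 6 fibroblast markers with a value had a median of -0.44 with all 6 below 0. In Ezh2-KO 4 of 5 stood below 0, with a median of -0.28. The few markers with a value thus stood mostly on the members' side in all 3 knockouts. Over all genes with a value 55.4% stood above 0 in Ring1A+B-DKO, 46.4% in Suz12-KO and 47.8% in Ezh2-KO. Endothelial markers had 4 values of 5 in Ring1A+B-DKO, 3 above 0, with a median of 0.64 and 1 call, Tie1 at 1.68. Their median in Suz12-KO was -0.37 over 4 genes and in Ezh2-KO -0.065 over 3. The part of other cell types in the members' values was not tested.

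**Figure D4:**
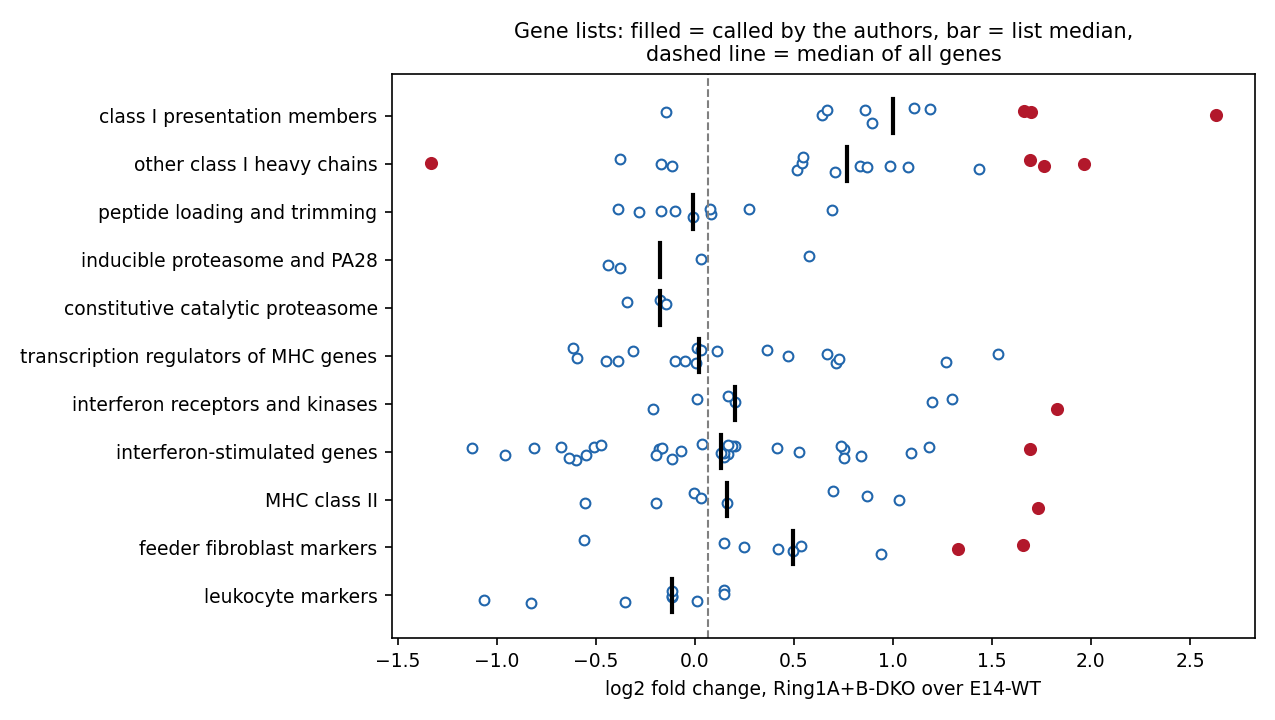
Log2 fold changes in Ring1A+B-DKO over E14-WT (x axis) of the members and of 10 other gene lists (rows), 1 point per gene with a value. Filled points were called by the authors, black bars are list medians and the dashed line is the median of all genes at 0.068. The members, the other class I heavy chains and the feeder fibroblast markers have medians of 1.00, 0.77 and 0.49, while those of loading, constitutive proteasome and interferon-stimulated genes lie between -0.18 and 0.13. Endothelial markers, with a median of 0.64, and pluripotent stem cell markers, with one of -0.26, are not drawn.

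The genes most like H2-K1 and B2m over the 4 comparisons were sought by Euclidean distance on the log2 scale. The search covered 604 other genes that had all 4 values and a call, with Gm and Rik symbols left out. Those nearest H2-K1 were Parp12, Crim1, Slc1a1, Farp1 and Pdpn, at distances of 0.16, 0.25, 0.33, 0.42 and 0.45. Parp12 rose in Ring1A+B-DKO, at 1.29, and stood at -0.90 in Ezh2-KO, at -1.05 in Suz12-KO and at -0.12 in Ezh2-WT. Those nearest B2m were farther off, namely Lama5, Med12l, Anxa4, Atp2a3 and Lamb1, at 0.66 to 0.82. Uncalled genes were not searched, though H2-K1 and B2m are themselves uncalled, so nearer genes may exist. The values are those of the authors' deposited table, and 3 of its 4 comparisons share E14-WT.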

How the data were processed

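Per the labels' protocols, libraries were made from fragmented total RNA after removal of small and ribosomal RNA. The submitters' processing notes name TopHat, featureCounts, DESeq2 and the builds GRCm38 and mm10. Call criteria, versions, filters and strand use were not given in the sources used here. The deposited values are log2 fold changes from DESeq2, with a true or false call (here yes or no), for identifiers of Ensembl release 72, per the file headers.

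Missing values gave the direction of each column. Genes read as present only in the named group were positive in 922 of 922 cases for Ezh2-KO and negative in 1064 of 1064 for Suz12-KO, 2259 of 2259 for Ring1A+B-DKO and 1170 of 1170 for Ezh2-WT, so the signs of these 3 columns were turned. The code was tried on simulated data in which such genes carry the column's sign by construction. That run could not fail, so it says nothing of the deposited columns. GENCODE mouse release 21 gave symbols and coordinates (36602 of 38355 identifiers, 95.4%), and copies were sought among its transcripts with blastn 2.17.0. Python 3.11.15, numpy 2.4.6, pandas 2.3.3 and matplotlib 3.10.9 were used.

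The members and gene lists were chosen with earlier results of these data known. Named are the members, the deleted genes, called genes of each list or else up to 4 with the largest size, called genes near Ring1 with the 4 largest there, and the 5 genes most like H2-K1 and B2m; others are said to be chosen after their values were seen or are copies of members or list examples. Alternatives were other size thresholds, centring, means, other windows and reduced lists. Comparing member proteins was planned and not run, and 1 gene that the rule names is not reported here.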

Additional observations from a re-analysis of the deposited data

How the results depend on the processing

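In the authors' deposited table, size alone gave other counts of members than the 0, 0, 3 and 0 called, in the order Ezh2-KO, Suz12-KO, the Ring1A+B-DKO and Ezh2-WT. At a size of 1 or more on the log2 scale there were 1, 1, 5 and 0, also after centring on the median of all genes, and at 0.5 or more there were 3, 3, 9 and 1. Without the 4 heavy chains 2 of 6 members were called in Ring1A+B-DKO, an alternative added after seeing the data. Without members whose value other genes share, the medians in Ezh2-KO and Suz12-KO were -0.76 and -0.76, over fewer genes. Without the heavy chains the medians in Ezh2-KO and Ezh2-WT were -0.071 and 0.23. The median of 1.00 in Ring1A+B-DKO stayed between 0.93 and 1.19 under the 4 alternatives run. Around Ring1 the median in Ring1A+B-DKO was -0.068 within 1 Mb, -0.085 within 0.5 Mb, -0.064 within 2 Mb and, added after seeing the data, -0.11 without Ring1, the members and H2 genes. With the sign as in the header H2-Q7 stands at -2.63 in Ring1A+B-DKO, and every other value in the 3 turned columns changes sign too. In the 100 bases before the start the NF-kB and interferon-stimulated response element letters were in 0 member windows and the GC box in 1, the window being shorter. List medians moved by over 0.1 and 1.5 times in 12 of 48 cases with the mean and 11 of 48 with genes that had all 4 values. Without values per sample, leaving out replicates could not be run. No paired analysis was possible because the table holds 1 fold change per gene and comparison.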

Other observations

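In all, 4 genes near the members were singled out after their values in the authors' deposited table were seen, and of these Myo1f alone was called in more than 1 comparison. Myo1f, an unconventional myosin whose start lies 469 kb from that of Ring1, fell in Ring1A+B-DKO at -2.33 and in Ezh2-WT at -2.25, and stood at -0.90 in Suz12-KO without a call. Notch4, a Notch receptor, fell in Ring1A+B-DKO at -1.55, and stood at 0.47 in Suz12-KO and -1.03 in Ezh2-WT. Apom, a lipoprotein component, stood at -1.01 in Ring1A+B-DKO, -0.47 in Suz12-KO and -1.11 in Ezh2-WT. H2-Q1 stood at 1.43 in Ring1A+B-DKO, 0.44 in Suz12-KO and 0.99 in Ezh2-WT. All of these comparisons use the same E14-WT libraries. In Ezh2-KO against Ezh2-WT, which uses none of them, Myo1f, Notch4, Apom and H2-Q1 stood at 0.18, 0.69, 0.19 and -0.22.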
